A study of Homo sapiens with 12 samples.

Results

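The adrenergic core transcription factors described here are 8 genes, PHOX2A, HAND1, HAND2, GATA2, GATA3, ISL1, TBX2 and TFAP2B, taken by name from the 58735 gene rows of the count tables of both cell lines. Neuroblastoma cells of the adrenergic state resemble the sympathetic neuron and chromaffin cell lineage they come from. In that state a small set of transcription factors binds the enhancers of its own members and of the other members, which keeps all of them expressed, and the same set drives the genes of catecholamine synthesis. The alternative mesenchymal state is marked by factors such as PRRX1 and the RUNX and FOSL families. The members fall into 5 classes. PHOX2A and ISL1 are homeodomain proteins, ISL1 with LIM domains as well. HAND1 and HAND2 are basic helix-loop-helix proteins that bind E-boxes as dimers with E proteins. GATA2 and GATA3 are zinc finger proteins that bind GATA sites, TBX2 is a T-box protein best known as a repressor, and TFAP2B belongs to the AP-2 family of the neural crest.

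RNA-seq was performed in 12 samples of 2 human neuroblastoma lines, KELLY, which carries an amplified MYCN locus, and SK-N-AS, which does not. Each line was given DMSO, the solvent control, or Erastin, which blocks cystine uptake through system Xc, at 1 µM in KELLY and 2 µM in SK-N-AS, and was harvested at 24 h, with 3 samples in each of the 4 groups. Each MYCN status is represented by a single established line and the doses differ, so that MYCN status, all other differences between the lines and, in the treated samples, the dose cannot be told apart. The triplicates were seeded in wells of the same plate format and nothing states that they were separate experiments, so p-values measure the spread between these samples.

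The total count per sample was 24169796 to 29835670, and no pair of libraries held identical values. MYCN was at 4924 to 5706 CPM (read counts normalised to library size with TMM factors) in KELLY DMSO and at 7 to 11 counts in SK-N-AS DMSO. Of 14 markers of other cell types, 4 passed the count filter in the DMSO comparison. The pan-leukocyte gene PTPRC was at 488 to 624 CPM in SK-N-AS DMSO and at 0 in every KELLY sample, while CD3E and LYZ did not pass the filter. VWF, an endothelial gene, had 69 to 84 reads in KELLY DMSO and 2 to 6 in SK-N-AS DMSO. The other endothelial markers, PECAM1 and CDH5, did not pass the filter. Their part in the members' values was not tested. CHAC1, a stress-induced gamma-glutamyl cyclotransferase used as a check of the treatment, was at 3.47 to 4.64 CPM in KELLY DMSO, 21.8 to 44.3 in KELLY Erastin, 0.806 to 1.18 in SK-N-AS DMSO and 17.5 to 28.7 in SK-N-AS Erastin. Of 6 such treatment markers, 5 were called higher with Erastin in SK-N-AS, CHAC1, ASNS and SLC7A11 the most, and 0 in KELLY, where 5 were higher at an unadjusted p under 0.05 and DESeq2 called 3.

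The pair of HAND genes had the largest and the smallest called difference between the lines, and the 250 bases upstream of their start sites are shown for that reason (RefSeq, GRCh38.p14, both on the minus strand). Capitals mark GATAA on either strand, where TTATC is the reverse complement. HAND1 lies at chr5:154478228-154478477 and HAND2 at chr4:173530230-173530479.
HAND1: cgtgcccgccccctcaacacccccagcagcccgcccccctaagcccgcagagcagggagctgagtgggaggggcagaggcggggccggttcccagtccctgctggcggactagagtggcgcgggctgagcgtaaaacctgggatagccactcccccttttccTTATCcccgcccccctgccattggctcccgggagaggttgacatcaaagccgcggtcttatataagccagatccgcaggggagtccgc
HAND2: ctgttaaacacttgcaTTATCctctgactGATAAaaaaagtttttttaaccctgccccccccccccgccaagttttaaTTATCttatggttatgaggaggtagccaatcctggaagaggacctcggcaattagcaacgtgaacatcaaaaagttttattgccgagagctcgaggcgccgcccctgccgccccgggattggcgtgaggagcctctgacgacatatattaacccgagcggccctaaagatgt
The HAND2 window holds 3 GATAA matches, 1 E-box (CANNTG) and 1 homeodomain core (TAATTA on either strand), while the HAND1 window holds 1 GATAA match and neither of the others. The AP-2 motif (GCCNNNGGC) has 1 match in the HAND1 window and 0 in the HAND2 window. GC content is 67.2% upstream of HAND1 and 49.6% upstream of HAND2.

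RefSeq windows were matched for 7 of the 8 members, with 13 start sites, of which 6 belong to GATA3. Their GC content ran from 40.8% at TFAP2B to 74.8% at a GATA3 start, and 10 of 13 were above the median of 58.0% over 35116 promoter windows. Each motif was searched on both strands and counted independently of the others. GATAA was found at 4 of the 13 starts and in 20.4% of all windows. The E-box CANNTG was found at 5 of 13 starts against 61.8% of all windows, the AP-2 motif GCCNNNGGC at 6 against 19.8%, TAATTA at 1 against 4.35% and the T-box sequence GGTGTGA at 0 against 2.76%. Several starts belong to 1 gene, and a match describes letters in the window only.

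Under DMSO, 7 of the 8 members were higher in KELLY than in SK-N-AS at an adjusted p under 0.05 (edgeR's quasi-likelihood test, Benjamini-Hochberg over 17089 genes), and 0 were lower. All 8 passed the count filter in every comparison. The difference ran from 1.35-fold for HAND2 to 133-fold for HAND1. In the same comparison 61.3% of all genes tested were called, 30.9% higher and 30.3% lower in KELLY, so that a call between these lines is common. The median log2 fold change was 1.83 over the members and 0.02 over all genes tested, where genes in both directions offset each other, and the median of its absolute value was 1.83 and 0.82. The groups did not overlap for any of the 8 members, as for 66.3% of all genes. As these are bulk samples, fewer cells expressing a gene and less RNA of it per cell cannot be told apart.

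**Figure D1:**
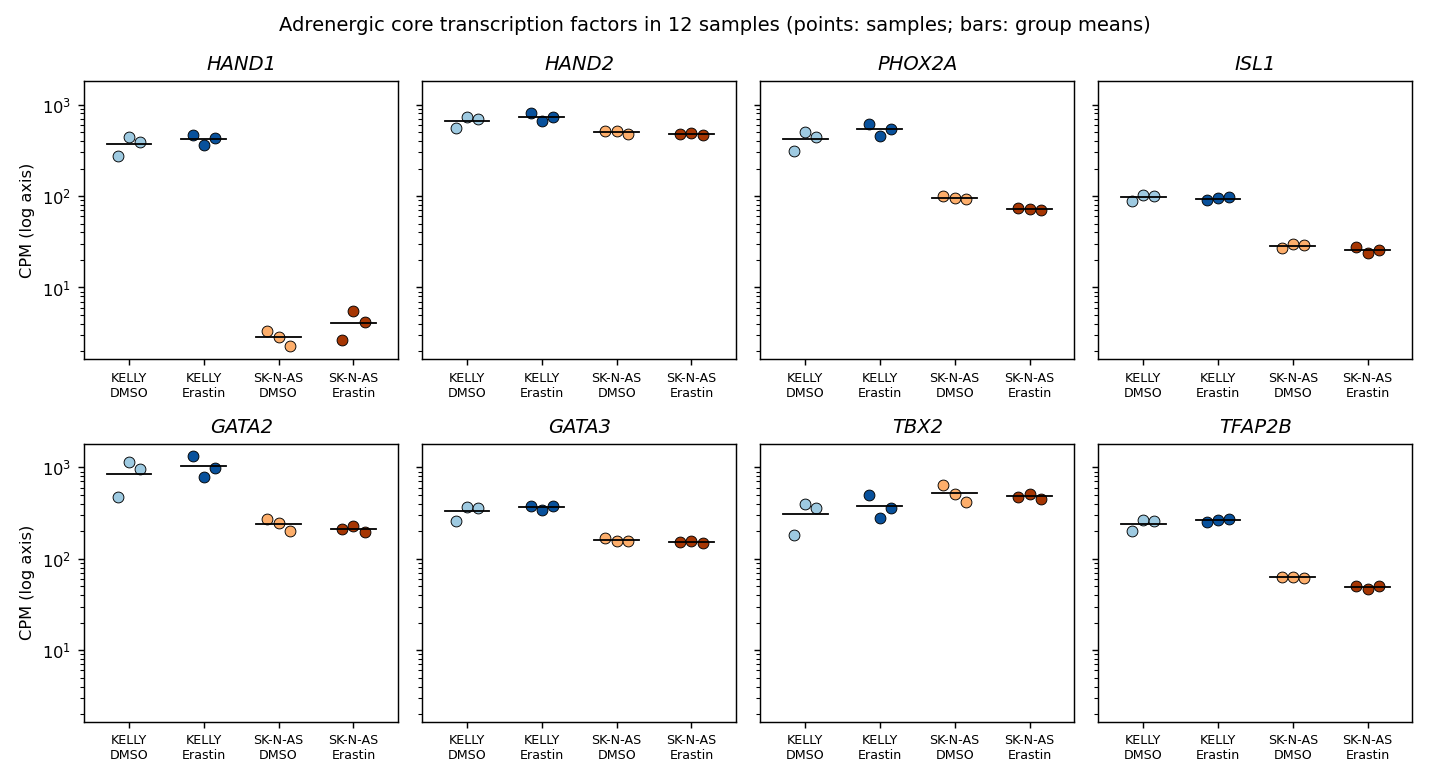
CPM (log axis) of each member in the 12 samples, where points are samples and bars are means of 3. HAND1 stands between 275 and 470 CPM in KELLY and below 6 CPM in SK-N-AS, while HAND2 stays between 466 and 801 CPM throughout, and TBX2 is the member whose DMSO samples are higher in SK-N-AS.

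Among the helix-loop-helix members, HAND1 was at 275, 446 and 387 CPM in KELLY DMSO and at 3.35, 2.90 and 2.27 CPM in SK-N-AS DMSO, where it rested on 91, 72 and 60 reads. This was by far the widest gap of any member, with a log2 fold change of 7.05 (SE 0.26, adjusted p = 1.54e-07), and its size was above that of 94.0% of all genes tested. HAND2, which is needed for sympathetic neuron development, was at 558, 735 and 697 CPM in KELLY DMSO and at 521, 510 and 473 in SK-N-AS DMSO. The lowest KELLY sample was just above the highest SK-N-AS sample. The log2 fold change of HAND2 was 0.44 (SE 0.13, adjusted p = 0.0168), and leaving out SK-N-AS DMSO 2, SK-N-AS DMSO 3 or KELLY DMSO 3 ended the call, with adjusted p of 0.0683, 0.0764 and 0.0728. Per kb of exon sequence, HAND1 was at 217 ± 51.2 CPM and HAND2 at 184 ± 25.8 in KELLY DMSO (SD, n = 3), and at 1.67 ± 0.32 and 139 ± 6.92 in SK-N-AS DMSO, so that the pair overlapped in KELLY and stood far apart in SK-N-AS.

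Both homeodomain members were higher in KELLY. PHOX2A, which activates the promoters of the noradrenaline synthesis genes, was at 309, 506 and 444 CPM in KELLY DMSO and at 100.4, 94.4 and 92.9 in SK-N-AS DMSO, a log2 fold change of 2.16 (SE 0.18, adjusted p = 1.11e-05). ISL1 was at 89.0, 102.7 and 100.9 CPM in KELLY DMSO against 27.0, 30.1 and 28.9 in SK-N-AS DMSO. Its log2 fold change was 1.80 (SE 0.13, adjusted p = 5.19e-06), and relative to its mean it varied least of the members in KELLY DMSO. In both genes the groups stood far apart, and KELLY DMSO 1 was the lowest KELLY sample.

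The zinc finger members moved the same way with different sizes. GATA2, which acts early in sympathetic progenitors, was at 473, 1135 and 955 CPM in KELLY DMSO and at 273, 244 and 201 in SK-N-AS DMSO, a log2 fold change of 1.86 (SE 0.29, adjusted p = 4.88e-04). KELLY DMSO 1 lay far below the other KELLY samples in this gene. GATA3, which maintains differentiated sympathetic neurons, was at 259, 372 and 362 CPM against 168, 157 and 156, and its log2 fold change was 1.08 (SE 0.15, adjusted p = 2.94e-04).

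TFAP2B was at 203, 265 and 256 CPM in KELLY DMSO and at 63.2, 63.3 and 61.7 in SK-N-AS DMSO, with a log2 fold change of 1.98 (SE 0.14, adjusted p = 3.69e-06). TBX2 was the exception in direction. It was at 180, 397 and 355 CPM in KELLY DMSO and at 637, 505 and 413 in SK-N-AS DMSO, so that every SK-N-AS sample was above every KELLY sample. Its log2 fold change was −0.71 (SE 0.28, adjusted p = 0.0503), just outside the threshold, and 11 of 18 alternative settings called it lower in KELLY.

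The Erastin samples of the lines differed in much the same way. PHOX2A, HAND1, HAND2, GATA2, GATA3, ISL1 and TFAP2B were higher in KELLY Erastin than in SK-N-AS Erastin at an adjusted p under 0.05 (edgeR), where 63.9% of 17122 genes were called and 32.4% were higher. The log2 fold changes were 2.89 for PHOX2A, 6.67 for HAND1, 0.59 for HAND2, 2.29 for GATA2, 1.26 for GATA3, 1.85 for ISL1 and 2.42 for TFAP2B. TBX2 was at 499, 282 and 362 CPM in KELLY Erastin and at 478, 515 and 451 in SK-N-AS Erastin, and here the groups overlapped, with a log2 fold change of −0.34 (SE 0.20, adjusted p = 0.158). Without KELLY Erastin 1, the sample that overlapped, TBX2 had a log2 fold change of −0.59 (adjusted p = 6.60e-05), while leaving out any of the other samples gave no call, with the value nearest to 0 at −0.16 (adjusted p = 0.371) without KELLY Erastin 2. This comparison uses other samples than the DMSO comparison, but its doses differ between the lines.

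**Figure D2:**
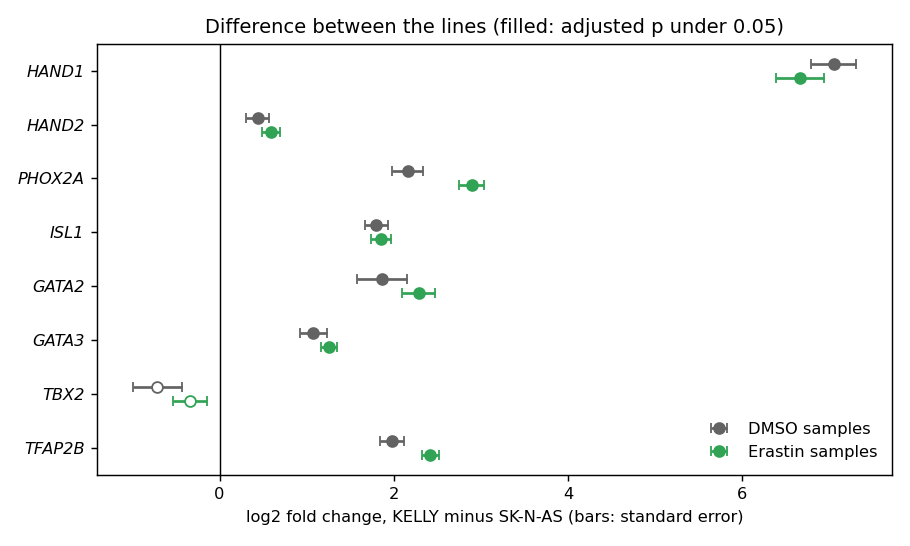
Log2 fold change of KELLY over SK-N-AS for each member in the DMSO and in the Erastin samples, with bars for the standard error and filled symbols for an adjusted p under 0.05. All members but TBX2 lie to the right of 0, HAND1 at 7.05 and 6.67, and TBX2 lies at −0.71 and −0.34 with open symbols.

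Levels were compared between members per kb of exon sequence, since longer transcripts yield more reads. In KELLY DMSO the order was PHOX2A (235 ± 56.5 CPM per kb, SD, n = 3), HAND1 (217 ± 51.2), HAND2 (184 ± 25.8), GATA2 (174 ± 69.7), GATA3 (97.4 ± 18.3), TBX2 (51.0 ± 18.9), TFAP2B (39.2 ± 5.43) and ISL1 (34.6 ± 2.63). The only neighbours in that order whose samples did not overlap were GATA3 and TBX2. GATA3 lay below every sample of PHOX2A, HAND1 and HAND2 and overlapped GATA2 alone among the members above it. In SK-N-AS DMSO the order was HAND2 (139 ± 6.92), TBX2 (85.3 ± 18.5), PHOX2A (53.8 ± 2.20), GATA2 (48.7 ± 7.35), GATA3 (47.2 ± 1.87), TFAP2B (10.2 ± 0.15), ISL1 (10.2 ± 0.55) and HAND1 (1.67 ± 0.32). There HAND2 and TBX2 each stood apart from their neighbours, PHOX2A, GATA2 and GATA3 overlapped in a row, TFAP2B and ISL1 overlapped, and HAND1 was alone at the bottom. HAND1 thus held the second place in KELLY and the last in SK-N-AS. TFAP2B and ISL1 were among the last 3 in both.

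In KELLY, none of the 8 members was called for Erastin at an adjusted p under 0.05 (edgeR), with adjusted p from 0.770 to 0.854. This comparison called 1 of 16258 genes (0.00615%), the secreted hormone gene STC2, named here after its values were seen. It called 0 of the 6 treatment markers, although all 6 were higher with Erastin without overlap. The lack of a call here therefore does not show that a member was unchanged. At an unadjusted p under 0.05 the members numbered 0 and all genes 2.64%, and at the threshold of the study (unadjusted p of at most 0.05 and at least 1.5-fold) 0 and 2.03%. DESeq2 called 31 genes and again 0 members. The Erastin and DMSO samples overlapped in every member, and did not overlap in 8.24% of all genes.

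PHOX2A was at 619, 449 and 545 CPM in KELLY Erastin beside 309, 506 and 444 in KELLY DMSO, with the largest log2 fold change of the members, 0.35 (SE 0.21). GATA2 was at 1318, 790 and 992 CPM and TBX2 at 499, 282 and 362, with log2 fold changes of 0.27 (SE 0.32) and 0.29 (SE 0.32). In these genes, and in HAND1 and HAND2, the highest value was KELLY Erastin 1 and the lowest KELLY DMSO 1. KELLY DMSO 1 was the lowest KELLY sample in GATA3, TFAP2B and ISL1 too. HAND1 was at 470, 365 and 430 CPM (0.18, SE 0.20) and HAND2 at 801, 655 and 728 CPM (0.13, SE 0.15). GATA3 was at 378, 342 and 379 CPM (0.14, SE 0.16), TFAP2B at 256, 264 and 275 (0.12, SE 0.14), and ISL1 at 89.9, 95.1 and 96.9 (−0.06, SE 0.13). Each of these 8 values was smaller than 2 of its standard errors.

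In some libraries the members' values followed the GC content of their transcripts. Against the mean of the line, KELLY DMSO 1 had a log2 ratio of −0.93 in GATA2, −0.87 in TBX2 and −0.60 in PHOX2A, whose transcripts have 60.4%, 61.4% and 66.5% GC, but only −0.10 in ISL1 at 45.4% GC. The other members were also below the mean there. HAND1 was at −0.50 (57.3% GC), HAND2 at −0.31 (58.5%), GATA3 at −0.41 (53.7%) and TFAP2B at −0.31 (48.4%). KELLY Erastin 1 leaned the other way, with log2 ratios of 0.55 for GATA2, 0.60 for TBX2, 0.40 for PHOX2A and −0.09 for ISL1. Over the 8 members, which share each library, Spearman's rho between GC content and this ratio was −0.76 in KELLY DMSO 1 and 0.90 in KELLY Erastin 1, the extremes of the 12 libraries. It was 0.62 and −0.10 in KELLY DMSO 2 and 3 and −0.71 and 0.71 in KELLY Erastin 2 and 3. In SK-N-AS it was 0.71, −0.07 and −0.17 in DMSO and −0.38, 0.31 and −0.69 in Erastin. Several libraries thus showed little or no such relation among the members. Over all well-expressed genes of known GC content, rho was −0.82, 0.69 and −0.47 in KELLY DMSO and 0.86, −0.65 and 0.24 in KELLY Erastin. It was 0.76, 0.23 and −0.74 in SK-N-AS DMSO and −0.28, 0.42 and −0.43 in SK-N-AS Erastin, so that GC trends were also present in libraries where the members showed little. After a smooth trend on GC was removed from each library, 6 of the 7 positive responses in KELLY became slightly negative, with PHOX2A at −0.085, HAND1 at −0.053, HAND2 at −0.16, GATA2 at −0.019, GATA3 at −0.011 and TBX2 at −0.038, and TFAP2B kept 0.10. Leaving out KELLY DMSO 1 and KELLY Erastin 1 together gave −0.23 for GATA2 and −0.23 for TBX2, and 0 members were called in either case.

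**Figure D3:**
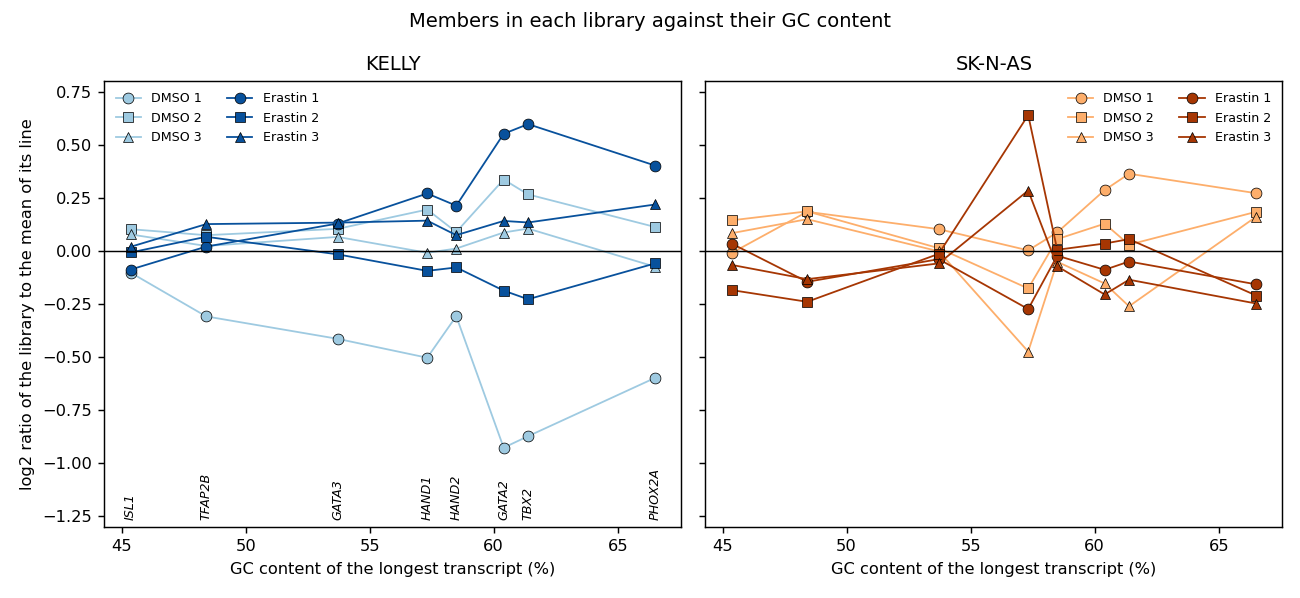
Log2 ratio of each library to the mean of its line for the 8 members, placed by the GC content of the longest transcript, with 1 line per library. In KELLY, DMSO 1 falls to −0.93 at GATA2 and Erastin 1 reaches 0.60 at TBX2, while ISL1 at 45.4% GC stays close to 0, and in SK-N-AS the wide spread at 57.3% GC is HAND1.

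In SK-N-AS, none of the 8 members was called for Erastin against DMSO at an adjusted p under 0.05 (edgeR) either, where 106 of 16095 genes (0.659%) were called, 0.460% higher and 0.199% lower. At an unadjusted p under 0.05, 3 members stood out beside 8.77% of all genes, PHOX2A and TFAP2B lower and HAND1 higher with Erastin. At the threshold of the study the count was 0 members and 2.67% of all genes. PHOX2A, TFAP2B and GATA3 did not overlap between the groups and were lower with Erastin, as were 8.68% of all genes.

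PHOX2A was at 74.4, 71.7 and 69.9 CPM in SK-N-AS Erastin beside 100.4, 94.4 and 92.9 in SK-N-AS DMSO, and each treated sample was below each control. The log2 fold change was −0.39 (SE 0.08, unadjusted p = 5.56e-04, adjusted p = 0.0681). Of 17 alternative settings 6 called PHOX2A, with adjusted p of 0.00605 by DESeq2, 0.0348 with no filter on low counts and 0.0413 with the GC trend removed. The other 3 were the fit with a replicate block, the block with the GC trend removed and the fit without SK-N-AS DMSO 3 (0.00235), while over all alternatives adjusted p reached up to 1.

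TFAP2B was at 50.2, 47.0 and 50.6 CPM in SK-N-AS Erastin beside 63.2, 63.3 and 61.7 in SK-N-AS DMSO, and it too did not overlap. Its log2 fold change was −0.32 (SE 0.09, unadjusted p = 0.00277, adjusted p = 0.179), and with the GC trend removed −0.33 (adjusted p = 0.00182). HAND1 was at 2.68, 5.49 and 4.18 CPM in SK-N-AS Erastin, on 73, 162 and 108 reads, with a log2 fold change of 0.56 (SE 0.25, unadjusted p = 0.0443, adjusted p = 0.545). Its highest value was SK-N-AS Erastin 2, and without that sample the log2 fold change was 0.31 (adjusted p = 0.958).

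The remaining members moved by less than 0.2 on the log2 scale in SK-N-AS. HAND2 was at 483, 492 and 466 CPM with Erastin (log2 fold change −0.03, SE 0.07) and GATA2 at 210.1, 229 and 194 (−0.16, SE 0.11). GATA3 was at 152, 155 and 149.7 CPM (−0.05, SE 0.08), and its highest treated sample lay just under its lowest control. ISL1 was at 27.9, 23.9 and 26.0 CPM (−0.12, SE 0.10) and TBX2 at 478, 515 and 451 (−0.08, SE 0.13).

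**Figure D4:**
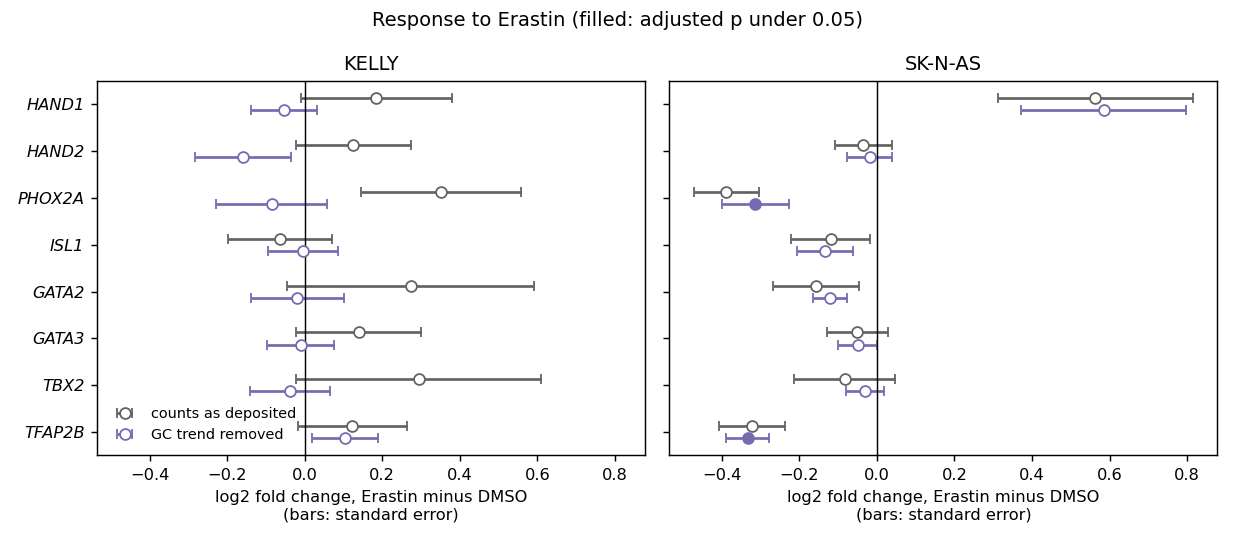
Log2 fold change of Erastin over DMSO for each member in each line, from the counts as deposited and with a GC trend removed from each library, with bars for the standard error and filled symbols for an adjusted p under 0.05. In KELLY the values from the deposited counts lie between −0.06 and 0.35 and move towards or below 0 when the trend is removed, while in SK-N-AS PHOX2A (−0.39 and −0.31) and TFAP2B (−0.32 and −0.33) stay lower and are filled with the trend removed.

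The difference between the responses was tested with an interaction term over all 12 samples, where a negative value means a lower response in SK-N-AS than in KELLY. No member was called (edgeR), and 1 of 18239 genes was (0.00548%), again STC2, with 12 called by DESeq2, of which 0 were members. PHOX2A had an interaction of −0.74 (SE 0.23, unadjusted p = 0.00612, adjusted p = 0.811) and TFAP2B of −0.45 (SE 0.15, unadjusted p = 0.00979, adjusted p = 0.811), and these were the 2 members at an unadjusted p under 0.05, beside 4.25% of all genes. With the GC trend removed the interaction of PHOX2A was −0.24 (SE 0.19) and that of TFAP2B −0.44 (SE 0.10, adjusted p = 0.176). The other 6 members had interactions from −0.43 for GATA2 to 0.37 for HAND1.

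Other genes of the adrenergic program were counted in lists chosen by their known roles. Of 18 further transcription factors of the adrenergic state, 13 were higher and 4 lower in KELLY DMSO, beside 30.9% and 30.3% of all genes tested. MYT1L and ZNF536, neural zinc finger factors, were at 22.6 to 23.7 and 11.4 to 14.6 CPM in KELLY DMSO and had 0 reads in every SK-N-AS sample. MYCN was among those higher. DACH1 (log2 fold change −1.38), SOX4 (−0.70) and MEIS2 (−0.62) were lower in KELLY, in the direction of TBX2.

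Of 21 cofactors and E-protein inhibitors, which set what the HAND, GATA and LIM proteins bind with, 10 were higher and 3 lower in KELLY DMSO. The share called was near that of all genes tested (61.3%). LDB2, which bridges LIM domain proteins, was at 26.9 to 32.8 CPM in KELLY DMSO and at 1 to 5 reads in SK-N-AS DMSO. LMO1 (log2 fold change 5.41, SE 0.34) and LMO3 (4.69, SE 0.35), LIM-only cofactors, were higher. LMO2 was at 4 to 22 reads in KELLY DMSO and 78 to 157 in SK-N-AS DMSO. ID1, which sequesters E proteins away from helix-loop-helix partners, was lower in KELLY (−2.87, SE 0.24) and so was TCF4, an E protein (−0.45, SE 0.16). The TCF4 call was near the threshold (edgeR, adjusted p = 0.0398) and was lost in 7 of 18 alternatives.

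Of 25 relatives in the families of the members, 14 passed the count filter in DMSO, 3 of them higher and 5 lower in KELLY. Here too the share called was near that of all genes tested (61.3%). GATA6 (log2 fold change 2.98), TBX20 (1.92) and MGA (0.48) were higher, and the MGA call was lost in 3 of 18 alternatives. TWIST2 and TFAP2C had 0 reads in every KELLY sample, against 903 to 1047 reads for TWIST2 and 397 to 484 for TFAP2C in SK-N-AS DMSO, and GATA4 had 1 to 7 reads in KELLY DMSO against 147 to 187 CPM. SK-N-AS thus held a GATA, an AP-2 and a TWIST family gene with 0 or few reads in KELLY, beside lower GATA2, GATA3 and TFAP2B.

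Of 18 noradrenergic genes, 14 were higher and 4 lower in KELLY DMSO, beside 30.9% and 30.3% of all genes tested. DBH, the enzyme that makes noradrenaline from dopamine, was at 573, 1217 and 952 CPM in KELLY DMSO and at 5.93, 4.80 and 3.86 in SK-N-AS DMSO, a log2 fold change of 7.58 (SE 0.34) close to that of HAND1. SLC18A2, the vesicular monoamine transporter, was at 109 to 126 CPM against 1 to 5 reads, and the receptor kinase gene ALK at 62.6 to 95.4 CPM against 1 to 4 reads. SCG2, a granule protein (log2 fold change −5.15, SE 0.14), NPY (−2.34, SE 0.31) and GCH1, which starts tetrahydrobiopterin synthesis (−0.92, SE 0.23), were lower in KELLY. Of 23 mesenchymal factors tested, 1 was higher in KELLY DMSO, SIX4 (2.31, SE 0.27), and 20 were lower. RUNX1 and RUNX2 had 0 reads in every KELLY sample and stood at 46.3 to 51.5 and 41.1 to 50.8 CPM in SK-N-AS DMSO, while FOSL1 had 1 to 2 reads against 82.2 to 107 CPM. In the Erastin samples the counts higher and lower in KELLY were 13 and 4 of the 18 further adrenergic factors, 12 and 3 of the 21 cofactors, 3 and 5 of 13 relatives, 14 and 3 of the 18 noradrenergic genes and 1 and 20 of 23 mesenchymal factors. Of all genes tested there, 32.4% were higher and 31.5% lower. These lists were put together with results of these data known and support no direction on their own.

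**Figure D5:**
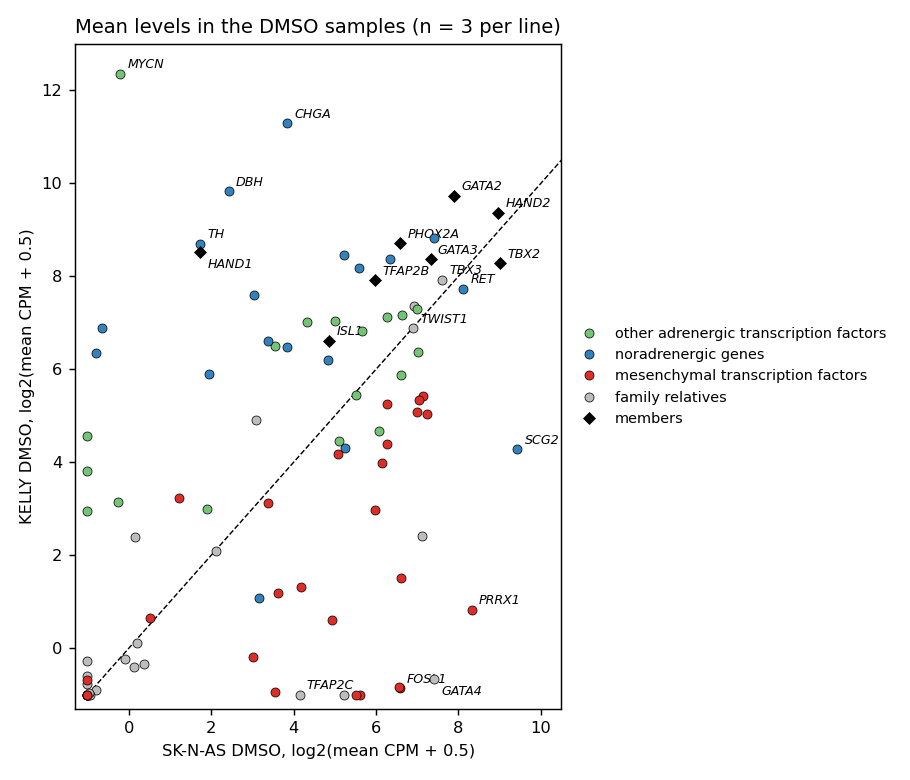
Mean CPM of 3 DMSO samples in KELLY against SK-N-AS, both as log2(mean CPM + 0.5), for the members and 4 lists of related genes, with a dashed line at equal levels. The members other than HAND1 and TBX2 lie above the line in the upper right, HAND1 lies beside TH at low SK-N-AS values, and most mesenchymal factors lie below the line.

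Erastin called no gene of these 5 lists in either line (edgeR), while DESeq2 called 0 in KELLY and 2 in SK-N-AS, 1 further adrenergic factor higher and 1 noradrenergic gene lower. At an unadjusted p under 0.05 (edgeR), KELLY had 2 of 9 relatives and 2 of 18 noradrenergic genes, beside 2.64% of all genes. SK-N-AS had 4 of 13 further adrenergic factors, 1 of 19 cofactors and 1 of 13 relatives, beside 8.77% of all genes. It also had 7 of 16 noradrenergic genes and 6 of 23 mesenchymal factors. In KELLY the smallest unadjusted p in each list belonged to ST18 (log2 fold change −0.40) and DACH1 (−0.45), TCF4 (−0.41) and LMO3 (−0.58), TBX18 (−0.77) and ISL2 (1.60, on 1 to 18 reads in DMSO), DDC (0.55) and DBH (0.79), and FOSL2 (0.38) and ETS1 (−0.30). In SK-N-AS they belonged to KLF7 (0.35) and INSM1 (−0.65), LMO4 (0.23) and TCF3 (−0.26), TBX20 (0.36) and TFAP2C (−0.26), GAP43 (−0.75) and STMN2 (−0.39), and PRRX1 (−0.36) and KLF4 (0.51). In the noradrenergic list of SK-N-AS, 7 of 16 genes were at an unadjusted p under 0.05 and 13 of 16 had a negative value. GAP43, a growth cone protein, was at 4.11, 5.32 and 4.15 CPM with Erastin beside 6.67, 8.87 and 7.75 in DMSO (adjusted p = 0.0681). With the GC trend removed, 5 of the 16 noradrenergic genes were called lower and 0 higher, while 936 of all 16095 genes were called in either direction. Such calls in SK-N-AS were not particular to this list. Over the 11 alternatives that kept all samples, up to 6 noradrenergic genes were called lower and 0 higher. Up to 6 mesenchymal factors were called lower and up to 3 higher there, and up to 3 further adrenergic factors lower and up to 2 higher.

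The interaction term called no gene of the 5 lists either. The smallest unadjusted p belonged to MYCN and SIX3 (no fold is given, as they rested on 1 to 3 and 1 to 4 reads in SK-N-AS Erastin), LMO4 (0.34) and TCF4 (0.42), TBX18 (0.63) and TBX3 (−0.28), DDC (−0.77) and SLC18A1 (−0.56), and ETS1 (0.60) and IRF1 (−0.50). DDC, which makes dopamine, was at 550, 443 and 468 CPM in KELLY Erastin beside 277, 381 and 332 in KELLY DMSO, and at 69.4, 66.9 and 70.2 beside 82.6, 82.2 and 78.9 in SK-N-AS, so that its samples moved apart in opposite directions without overlap. Its interaction had an adjusted p of 0.731, and 1 of 23 alternatives, with the GC trend removed, called it (adjusted p = 0.0155).

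Positions of the members were taken from GENCODE 44 on GRCh38, in which all 8 are protein coding. PHOX2A lies at chr11:72239077-72245664 on the minus strand, HAND1 at chr5:154474972-154478227 (minus), HAND2 at chr4:173524969-173530229 (minus), GATA2 at chr3:128479427-128493201 (minus), GATA3 at chr10:8045378-8075198 (plus), ISL1 at chr5:51383448-51394730 (plus), TBX2 at chr17:61399843-61409466 (plus) and TFAP2B at chr6:50818723-50847619 (plus). For 5 of the members a gene on the opposite strand overlaps, and since the counting is not stated to use strand, their reads could not be told apart where exons coincide.

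HAND2-AS1 shares exonic bases with HAND2 and had a similar number of reads, at 644, 519 and 589 CPM in KELLY DMSO and 363, 351 and 416 in SK-N-AS DMSO. GATA2-AS1 also overlaps exons of its partner, but it was at 16.0, 33.1 and 28.0 CPM against 23.3, 21.9 and 18.8, with far fewer reads than GATA2 in both lines. INPPL1, which shares 71 bases with PHOX2A, was at 84.5, 129 and 110.2 CPM in KELLY DMSO and 114, 99.6 and 89.4 in SK-N-AS DMSO, without the gap that PHOX2A showed. GATA3-AS1 and TBX2-AS1 overlap their partners without shared exons and were at 5.77 to 7.57 and 12.9 to 18.4 CPM in KELLY DMSO, and at 2.99 to 4.38 and 22.3 to 28.7 in SK-N-AS DMSO. A further lncRNA gene on the opposite strand overlaps TBX2 by 401 bases with overlapping exons. It was not found by name among the counted genes.

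The genes whose profile over the 12 samples was nearest to each member were found among 18239 genes by the root mean square difference of centred log2 CPM, and all share the same libraries. For PHOX2A they were EEF1A2 (0.10 on the log2 scale) and RNF208 (0.11), for HAND1 FEV (0.22) and PAX5 (0.22), and for HAND2 PPP2R1A (0.04) and PLCXD1 (0.05). GATA2 was nearest to CSNK1E (0.09) and ATXN7L2 (0.11), and GATA3 to SLIT3 (0.06) and ZFP64 (0.07). ISL1 was nearest to ACAT1 (0.05) and ODC1 (0.08), TBX2 to DMWD (0.06) and GNA11 (0.07), and TFAP2B to SIX2 (0.12) and ST6GAL1 (0.12). No member was among the 2 nearest genes of another member.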

How the data were processed

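Gene expression was measured by RNA-seq in 12 samples. The authors deposited raw counts per gene, made from paired-end reads that, per the labels and methods, were trimmed (Trimmomatic), aligned to GRCh38 and counted with HTSeq on GENCODE gene models. The aligner and the strand setting are not given in the sources used here. Total counts per sample ran from 24169796 to 29835670, which leaves counting error small for all members but HAND1 in SK-N-AS.

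Groups followed the labels. Counts were filtered with filterByExpr, scaled by TMM and tested with edgeR 4.0.16 (quasi-likelihood, limma 3.58.1, R 4.3.3) within each line for Erastin, between the lines within each treatment, and over all samples for the interaction. Benjamini-Hochberg adjustment covered all genes tested, and a gene was called at an adjusted p under 0.05. The study threshold (unadjusted p of at most 0.05, at least 1.5-fold) was also counted. CPM used TMM-scaled library sizes and was divided by exon length in kb (GENCODE 44) to compare genes.

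Alternatives were DESeq2 1.42.0, limma-voom, RLE or library size scaling, no filter, a minimum of 10 counts in all samples, a restriction to protein-coding genes, all samples in 1 fit, a replicate block, a loess trend on GC content (span 0.5) removed from each library, and leaving out each sample. Removal of the trend within groups, and leaving out KELLY DMSO 1 with KELLY Erastin 1, were added after seeing the data. GC content was known for 88.4% (KELLY) and 89.1% (SK-N-AS) of the genes tested. The scripts were tested on simulated data. DMSO samples serve both the line and the Erastin comparisons, and the interaction uses all of them, so these comparisons are not independent.

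All members are named in every comparison. From each list of related genes the text names up to 3 called higher and 3 called lower with the largest change, or the 2 with the smallest p where none was called, and genes overlapping a member. STC2 and TH were named beyond this rule after their values were seen, and some genes of the lists are counted but not reported here singly. The members and lists were chosen with earlier results of these data known.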

Additional observations from a re-analysis of the deposited data

Results flagged for a closer look

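Among the members, the genes named singly from the lists and STC2, only DDC had samples that moved in opposite directions without overlap. Other genes were not checked for this pattern. In DDC, which makes dopamine, every KELLY Erastin sample was above and every SK-N-AS Erastin sample below its DMSO samples. The interaction was −0.77 on the log2 scale (SE 0.17), and the test of that difference did not pass after adjustment (edgeR, adjusted p = 0.731). Of 23 alternatives 1 called it, with the GC trend removed (−0.72, adjusted p = 0.0155), and over all of them adjusted p ran from 0.0155 to 1.00. STC2, a secreted hormone gene, had a different response in the lines by the interaction test, with −2.02 (SE 0.19, adjusted p = 0.00224), which means a smaller response in SK-N-AS. None of the 8 transcription factors met either condition.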

How the results depend on the processing

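The 7 members called higher in KELLY were called by every alternative in the Erastin samples, and in the DMSO samples by every alternative but 4, which lost HAND2. The count of members called lower in KELLY DMSO rose from 0 to 1 (TBX2) with RLE scaling, DESeq2, limma-voom, no filter, all 12 samples in 1 fit and the 3 fits with the GC trend removed, and was 0 to 1 when single samples were left out. In the Erastin samples it rose from 0 to 1 in the 3 fits with the trend removed, and was 0 to 1 without single samples. In SK-N-AS the members called lower with Erastin rose from 0 to 1 (PHOX2A) with DESeq2 and with no filter and to 2 (PHOX2A and TFAP2B) with the trend removed, and ranged from 0 to 2 without single samples. Members past the study threshold there rose from 0 to 1 (HAND1) with the trend removed, and ranged from 0 to 1. All genes called with the trend removed numbered 31 (KELLY) and 936 (SK-N-AS), against 1 and 106. Ordered by CPM without length, 4 members changed place in KELLY DMSO.

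Some Erastin responses changed sign, none of them called. With the GC trend removed, KELLY gave −0.085 for PHOX2A, −0.053 for HAND1, −0.16 for HAND2, −0.019 for GATA2, −0.011 for GATA3 and −0.038 for TBX2, and the interaction 0.14 for HAND2 and 0.011 for TBX2. Without KELLY DMSO 1 and KELLY Erastin 1, KELLY gave −0.071 for HAND1, −0.053 for HAND2, −0.23 for GATA2, −0.027 for GATA3 and −0.23 for TBX2, and the interaction 0.023 for HAND2, 0.083 for GATA2 and 0.15 for TBX2. Without single samples GATA2 ran from −0.0078 (without KELLY DMSO 1) to 0.52 in KELLY, and in SK-N-AS TBX2 ran from −0.22 to 0.098 (without SK-N-AS DMSO 1).

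Whether samples with the same replicate number were paired is not stated in the sources used here, and correlations between them cannot settle it. Deviations of same-numbered DMSO and Erastin samples from their group means correlated at −0.79, −0.82 and −0.15 in KELLY and −0.11, 0.20 and 0.39 in SK-N-AS. With the replicate block HAND2 lost its call between the lines (adjusted p = 0.0631), PHOX2A was called in SK-N-AS (adjusted p = 0.0128), making 1 member called lower, and all genes called numbered 0 (KELLY) and 308 (SK-N-AS). With the block and the trend removed, 2 members were called lower in SK-N-AS (PHOX2A, adjusted p = 0.00259, and TFAP2B, 2.04e-04), TBX2 was called lower in KELLY in both line comparisons (1 member each), and KELLY gave −0.092 for PHOX2A, −0.056 for HAND1, −0.16 for HAND2, −0.0065 for GATA2, −0.013 for GATA3, −0.030 for TBX2 and 1.34e-04 for ISL1, with interactions of 0.15 for HAND2 and 0.0079 for TBX2. The cause of these changes was not tested. HAND1 in SK-N-AS rested on 60 to 162 reads, the fewest of any member.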
